A study of Rattus norvegicus with 20 samples.

Results

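A set of 10 genes of lipoprotein handling are described here in rat liver: the apolipoprotein genes Apoa1, Apoa2, Apoa4, Apoa5, Apob, Apoc2, Apoc3 and Apoe, the lipid-loading gene Mttp, and Lipc, which encodes hepatic lipase. They were chosen by name, as the probe sets that the array annotation gives to 1 of these symbols, and are 10 of the 13462 genes tested. All 10 had a tested probe set and 12 probe sets were found in all, since Apob and Apoe had 2 each. Where a gene had 2, it is represented by the probe set with the higher mean signal.

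RNA came from whole liver of 20 male Sprague-Dawley rats, 1 array per rat and 5 rats per diet. All rats arrived at 4 weeks of age, ate a commercial non-purified diet for 5 days of adaptation, and then ate 1 of 4 diets for 21 days, with the 5 per diet picked from 7 or 8 rats for their average food intake. The casein group, the reference, ate casein (milk protein) at 200 g per kg of diet. The conventional soybean group ate casein and the cultivar Fukuyutaka in equal parts of protein. Of the groups given the high-isoflavone cultivar Yukipirika, 1 ate casein and soybean in equal parts (1:1) and 1 ate 3 parts casein to 1 part soybean (3:1). Isoflavones are plant compounds that bind estrogen receptors. The soybean diets replaced casein with protein from soybean, so less casein, more soybean and more isoflavone cannot be told apart in a comparison with casein. The series asks what dietary soybean and its isoflavone content do to liver messenger RNA.

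The liver ships triglyceride and cholesterol into blood on very low density lipoproteins. Microsomal triglyceride transfer protein, the product of Mttp, loads lipid onto apolipoprotein B as it is made, and the particle then travels with small exchangeable apolipoproteins on its surface. Apolipoproteins A-I and A-II are the main proteins of high density lipoprotein, C-II activates lipoprotein lipase, C-III slows triglyceride clearance, A-V promotes it, and E is a ligand by which receptors take up remnants. Hepatic lipase, bound at the surface of liver sinusoids, hydrolyses triglyceride and phospholipid of remnants and high density lipoprotein.

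Values are log2 signals, so a difference of 1 is a 2-fold difference, and levels of different probe sets are not compared, because probes differ in how well they bind. A gene was called when limma's test, adjusted with Benjamini-Hochberg over all 27702 tested probe sets, gave an adjusted p under 0.05. The RNA was of bulk tissue, so fewer cells of a type and less RNA per cell cannot be told apart. Of 8 hepatocyte markers 7 were measured, all from the 99.64th percentile of signal upward, and none was called in any comparison. Their differences from casein ran from -0.38 to 0.11 on conventional soybean, -0.42 to 0.16 on the 3:1 and -0.40 to 0.19 on the 1:1 diet. On each of these diets 5 of the 7 lay above 0. The log2 of their summed signal was 12.40 to 12.52 on casein, 12.31 to 12.59 on conventional soybean, 12.41 to 12.57 on the 3:1 and 12.45 to 12.60 on the 1:1 diet. Among markers of other cell types, the bile duct gene Epcam fell by 0.71 on conventional soybean (adjusted p = 0.0257) and by 0.95 on the 1:1 diet (adjusted p = 0.00251), from a dim 2.82 on casein. Another bile duct gene, Krt19, rose by 0.97 over the 3 soybean diets (adjusted p = 0.0391), and the adipose gene Cfd fell by 0.64 on the 1:1 diet (adjusted p = 0.0334). Only 2 of 4 adipose markers were measured, and the other differed by 0.50 in the opposite direction on the 1:1 diet, not called. For the 5 of 6 bile duct markers measured, the log2 of the summed signal overlapped between all diets. It was 4.26 to 4.77 on casein and 4.37 to 4.83, 4.44 to 4.61 and 4.49 to 4.61 on the conventional, 3:1 and 1:1 soybean diets. No marker of the other lists was called, and the part of these cells in the results was not tested. Array medians ran from 2.43 to 2.49 on casein, and did not overlap those on conventional soybean, 2.51 to 2.56. They were 2.43 to 2.52 on the 3:1 diet and 2.45 to 2.57 on the 1:1 diet. The 3′ over 5′ signal of beta-actin, a measure of RNA integrity, ranged from 1.07 to 2.13 (log2) over the 20 arrays with overlap between all diets. Casein replicate 5 and 3:1 replicate 1 had a higher floor of the lowest signal than the other arrays.

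Hepatic lipase was the only one of the 10 genes called in any comparison of the values as deposited. The stretch before its start site is shown because Lipc is the gene that the diet results turn on. The sequences are from RefSeq on GRCr8, read on the minus strand of chromosome 8, 5′ to 3′, and the capitals mark letters that match a searched motif. The upstream stretch lies at chr8:80516464-80516535, 250 to 179 bases before the start.
Lipc upstream: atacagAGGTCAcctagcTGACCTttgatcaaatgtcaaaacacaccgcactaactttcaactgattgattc
The proximal stretch lies at chr8:80516286-80516315, 30 to 1 bases before the start. The start used for these distances is that of the promoter window. The annotated RefSeq gene begins earlier, just after the upstream stretch, so the proximal stretch lies inside that gene.
Lipc proximal: gtaacatgttttaggGTTAATAATTAAtgg
The upstream stretch holds the hexamer AGGTCA, the unit that many nuclear receptors bind, at 244 bases before the start, and its reverse complement TGACCT at 232 bases. On both strands AGGTCA was found in 16.2% of 33469 promoter windows of 300 bases in the same table. The proximal stretch matches the hepatocyte nuclear factor 1 site without its last base, at 15 bases before the start, a match found in 0.0448% of the windows. The full site did not match in Lipc and was found in 0.00299% of windows. The estrogen response element, found in 0.0269% of windows, and a direct repeat of AGGTCA with 1 base between, found in 0.0538%, had no match in the Lipc window. These 4 motifs are given by name, and all were searched on both strands. The motifs were chosen after the sequence was seen, and a match is a description of letters. Windows were in the table for Apoa4, Apoa5, Apoc2 and Apoe as well, and 1 of them had a match: AGGTCA at 103 bases before the start of Apoa5. Apoa1, Apoa2, Apob, Apoc3 and Mttp are named only.

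Lipc messenger RNA was lower on both diets in which soybean gave an equal part of the protein. On casein, Lipc (probe set 1369701_at) measured 7.94, 8.14, 8.27, 8.13 and 8.05 in replicates 1 to 5. On conventional soybean it measured 7.51, 7.71, 7.30, 7.48 and 7.65, and on the 1:1 high-isoflavone diet 7.28, 7.72, 7.85, 7.61 and 7.74. Every rat on these 2 diets lay below every casein rat. Lipc on the 3:1 diet measured 7.74, 7.96, 7.90, 7.56 and 8.09, so that 3 of the 5 rats lay below the lowest casein rat. The mean was 8.11 ± 0.120 on casein (SD, n = 5), 7.85 ± 0.205 on the 3:1 diet, 7.64 ± 0.217 on the 1:1 diet and 7.53 ± 0.158 on conventional soybean.

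Lipc fell by 0.58 on conventional soybean (SE 0.109, 95% interval -0.80 to -0.35, limma adjusted p = 0.0102), which is 33.0% less signal. It fell by 0.47 on the 1:1 diet (SE 0.109, -0.69 to -0.24, adjusted p = 0.0242), or 27.7% less. On the 3:1 diet the difference from casein was -0.26 (-0.48 to -0.03, adjusted p = 0.558) and was not called. Neighbours in the order casein, 3:1, 1:1, conventional soybean were not told apart by the test: the 1:1 diet differed from the 3:1 diet by -0.21 (-0.44 to 0.01, adjusted p = 0.714) and from conventional soybean by 0.11 (-0.12 to 0.34, adjusted p = 0.889). Averaged over the 3 soybean diets Lipc fell by 0.43 (SE 0.0890, adjusted p = 0.0115). The conventional soybean call held whichever of the 20 arrays was left out (adjusted p between 0.00489 and 0.034). The 1:1 call ended without casein replicate 2 (adjusted p = 0.0562), 3 (0.0601) or 4 (0.0593) and without 1:1 replicate 1 (0.0598) or 4 (0.0614). It also ended when both higher-floor arrays were left out (0.0545) and without replicate 1 of all diets (0.0687), while the difference stayed between -0.48 and -0.42 in these last settings. Macrophage markers, of which 6 of 8 were measured, were not called in this comparison, but all 6 lay below casein on the 1:1 diet. The log2 of their summed signal was 6.49 to 6.98 there, against 6.87 to 7.55 on casein. Their part in the result was not tested.

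**Figure D1:**
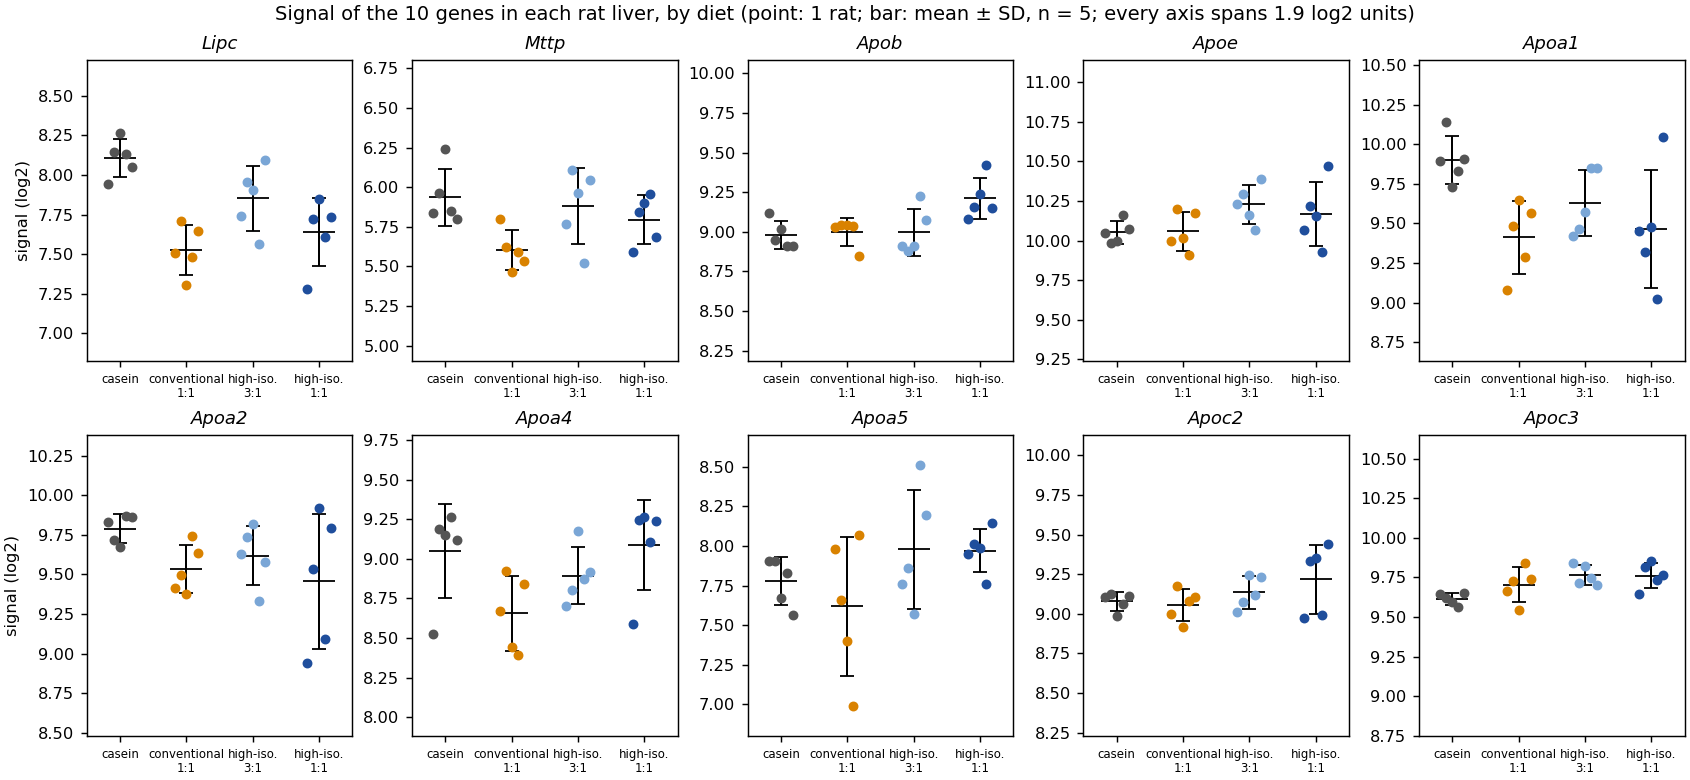
Log2 signal of the 10 genes in each of the 20 rats by diet, 1 panel per gene with its own axis, points for rats and bars for the mean ± SD of 5 rats. Lipc on conventional soybean and on the 1:1 diet lies below all 5 casein rats, while Apoc3 varies little within a diet.

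Of the particle-forming genes Apob and Mttp, neither was called in a comparison of the deposited values. Apob (1388190_at), the structural protein of very low density lipoprotein, measured 9.12, 8.95, 9.02, 8.91 and 8.91 on casein and 9.08, 9.16, 9.24, 9.42 and 9.15 on the 1:1 diet. The ranges overlapped through casein replicate 1 and 1:1 replicate 1 alone. On conventional soybean Apob measured 9.03, 9.04, 9.04, 9.03 and 8.84, and on the 3:1 diet 8.91, 8.88, 8.91, 9.22 and 9.08. These 2 diets had nearly the casein mean, 8.998 in each against 8.980. The 1:1 diet differed from casein by 0.23 (SE 0.0772, interval 0.07 to 0.39), an excess of 17.3%, and the difference was not called (adjusted p = 0.123). Conventional soybean differed by 0.02 (-0.14 to 0.18) and the 3:1 diet by 0.02 (-0.14 to 0.18). The other Apob probe set (1371157_at) was dim, at a mean of 2.03, and differed by -0.08 to 0.18 in the 6 comparisons with none called.

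Mttp (1395041_at), the transfer protein gene, measured 5.84, 5.97, 6.24, 5.85 and 5.80 on casein and 5.80, 5.62, 5.47, 5.59 and 5.53 on conventional soybean. The groups did not overlap, but the highest soybean rat and the lowest casein rat, at 5.7999 and 5.8001, were nearly equal. On the 3:1 diet Mttp measured 5.77, 6.11, 5.96, 5.52 and 6.04, and on the 1:1 diet 5.59, 5.84, 5.90, 5.96 and 5.69, both overlapping casein. The difference from casein was -0.33 on conventional soybean (SE 0.112, -0.57 to -0.10, adjusted p = 0.128), -0.14 on the 1:1 diet (-0.37 to 0.09) and -0.06 on the 3:1 diet (-0.29 to 0.18). None was called as deposited. After the arrays were centred and scaled the conventional soybean difference was -0.46 and was called (adjusted p = 0.029).

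Of the genes for high density lipoprotein proteins, Apoa1 had the larger differences from casein. Apoa1 (1368335_at), which encodes the main protein of these particles, measured 9.89, 10.14, 9.73, 9.83 and 9.91 on casein and 9.08, 9.48, 9.65, 9.29 and 9.56 on conventional soybean. All 5 soybean rats lay below all 5 casein rats. Apoa1 on the 3:1 diet measured 9.42, 9.47, 9.57, 9.85 and 9.85, and on the 1:1 diet 9.45, 9.32, 9.48, 9.02 and 10.04. On the 1:1 diet 4 rats lay below the casein range and replicate 5 lay within it. Apoa1 differed by -0.49 on conventional soybean (SE 0.145, -0.79 to -0.19, adjusted p = 0.0889), or -28.7%, by -0.44 on the 1:1 diet (-0.74 to -0.14, adjusted p = 0.12) and by -0.27 on the 3:1 diet (-0.57 to 0.03, adjusted p = 0.682).

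None of these Apoa1 differences was called, but the side of the threshold changed with 1 array left out and with the processing. Without 1:1 replicate 5 Apoa1 was called lower on conventional soybean (adjusted p = 0.0399), on the 1:1 diet (-0.58, 0.016) and over the 3 soybean diets (-0.45, 0.0174). That array is not part of the conventional soybean comparison, whose difference stayed at -0.49. Its 3′ over 5′ beta-actin signal was 2.10, against 1.07 to 1.43 on the other 1:1 arrays. The same measure on GAPDH was 0.83, within the 0.81 to 0.91 of the other 1:1 arrays. The part of RNA integrity in this was not tested. Centring and scaling the arrays called Apoa1 in the same 3 comparisons, at -0.69 (0.0239), -0.66 (0.0283) and -0.59 (0.0178). Array weights called Apoa1 over the 3 soybean diets. Apoa2 (1369727_at), the second protein of the particle, measured 9.83, 9.72, 9.67, 9.87 and 9.86 on casein, and 8.94, 9.54, 9.92, 9.09 and 9.79 on the 1:1 diet. The 1:1 rats spanned both sides of the casein range. On conventional soybean Apoa2 measured 9.42, 9.50, 9.38, 9.74 and 9.64, and in the 3:1 group 9.63, 9.74, 9.82, 9.33 and 9.58. Its differences were -0.26 on conventional soybean (-0.55 to 0.04), -0.33 on the 1:1 diet (-0.63 to -0.04, adjusted p = 0.235) and -0.17 on the 3:1 diet (-0.47 to 0.13), none called.

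Apoa4 (1368520_at), an apolipoprotein that rodent liver makes as well as the intestine, measured 8.52, 9.19, 9.15, 9.27 and 9.12 on casein and 8.67, 8.92, 8.44, 8.40 and 8.84 on conventional soybean. On casein replicate 1 stood apart from the other 4 rats, which all lay above the 5 soybean rats. On the 1:1 diet it measured 8.59, 9.24, 9.26, 9.11 and 9.24, where replicate 1 again stood below the other 4, and on the 3:1 diet 8.70, 8.80, 9.18, 8.88 and 8.92. The difference from casein was -0.39 on conventional soybean (SE 0.146, -0.70 to -0.09, adjusted p = 0.171), 0.04 on the 1:1 diet (-0.26 to 0.34) and -0.15 on the 3:1 diet (-0.46 to 0.15). Without casein replicate 1 the conventional soybean difference was -0.53 and was called (adjusted p = 0.0486), as it was without replicate 1 of all diets (0.028) and after centring and scaling (0.0167). The sign of the Apoa4 difference on the 1:1 diet turned under other scalings, to -0.16 when centred and scaled and -0.0039 after quantile normalization.

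Apoa5 (1369011_at), which promotes clearance of triglyceride, varied most between rats. It measured 7.90, 7.91, 7.67, 7.83 and 7.57 on casein, 7.98, 7.66, 7.40, 6.99 and 8.07 on conventional soybean, 7.76, 7.86, 7.57, 8.51 and 8.19 on the 3:1 diet and 7.95, 8.01, 7.99, 7.76 and 8.14 on the 1:1 diet. All 4 diets overlapped. The differences from casein were -0.16 (-0.52 to 0.21), 0.20 (-0.16 to 0.57) and 0.19 (-0.17 to 0.56) in the order conventional soybean, 3:1 and 1:1, and none was called.

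Apoc3, Apoc2 and Apoe differed little from casein. Apoc3 (1370009_at), the inhibitor of triglyceride clearance, measured 9.64, 9.62, 9.60, 9.56 and 9.65 on casein and 9.84, 9.71, 9.82, 9.74 and 9.71 on the 3:1 diet. All 5 rats on the 3:1 diet lay above all 5 casein rats, by a mean of 0.15 (SE 0.0588, 0.03 to 0.27, adjusted p = 0.513). On the 1:1 diet it measured 9.64, 9.82, 9.85, 9.73 and 9.76, with 4 rats above the casein range, and differed by 0.15 (0.02 to 0.27, adjusted p = 0.202). On conventional soybean Apoc3 measured 9.66, 9.73, 9.55, 9.84 and 9.74, a difference of 0.09 (-0.03 to 0.21). None was called. After the arrays were centred and scaled the sign turned on conventional soybean (-0.11) and on the 1:1 diet (-0.07).

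Apoc2 (1393139_at), the activator of lipoprotein lipase, had means of 9.08 ± 0.0574 on casein, 9.06 on conventional soybean (lowest 8.91, highest 9.17), 9.14 ± 0.101 on the 3:1 diet and 9.22 ± 0.220 on the 1:1 diet (SD, n = 5 each). Its differences from casein were -0.02 (-0.20 to 0.15), 0.06 (-0.12 to 0.23) and 0.14 (-0.04 to 0.32) in that order. Apoe (1370862_at), the receptor ligand, had means of 10.05 ± 0.0717, 10.06 ± 0.123, 10.23 ± 0.124 and 10.17 ± 0.200 in the same order. It differed by 0.01 (-0.17 to 0.19), 0.18 (-0.00045 to 0.35, adjusted p = 0.618) and 0.12 (-0.06 to 0.29). The means over all rats of Apoe, 10.13, and Apoc3, 9.71, and the casein means of Apoa1, 9.90, and Apoa2, 9.79, lay above the mean of the brightest spike-in control, 9.62. The highest single signal of that control was 9.98. Above 9.98 no spike-in shows how signal follows RNA amount, and of these means only that of Apoe lay there. The other Apoe probe set (1371288_at) was dim, at a mean of 1.54, and differed by 0.72 on the 1:1 diet (0.12 to 1.31, adjusted p = 0.199).

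**Figure D2:**
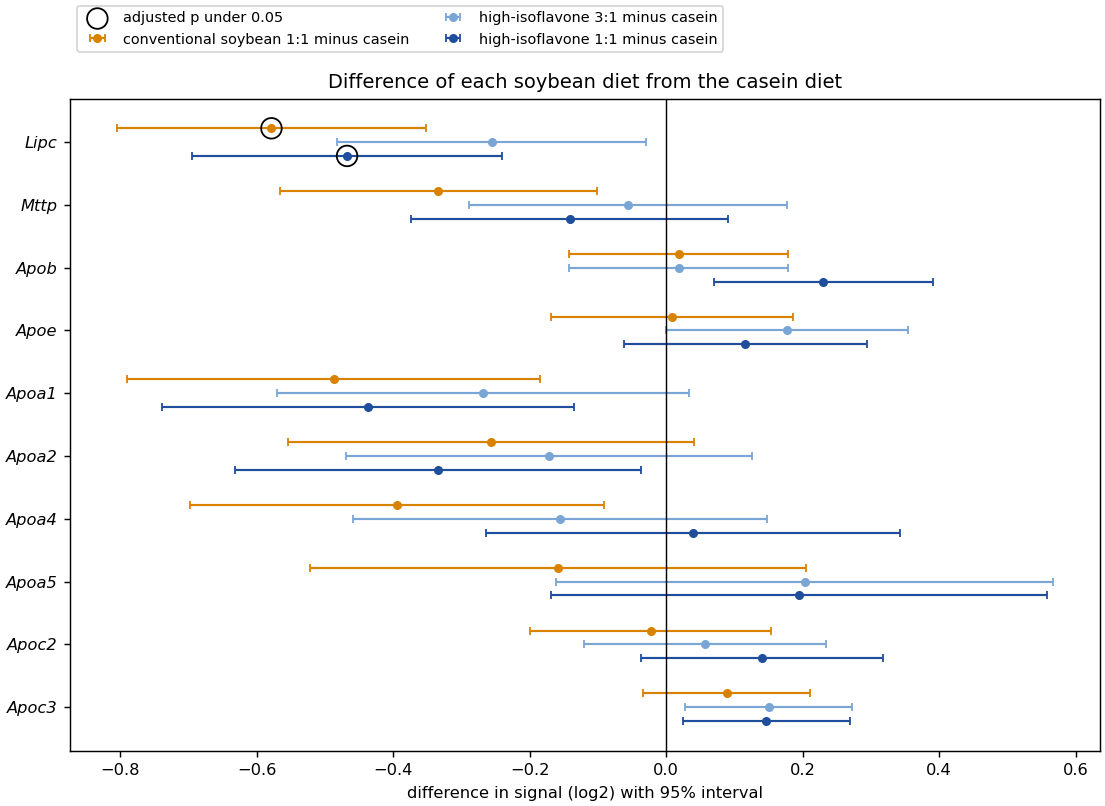
Log2 difference from casein of each of the 10 genes on the 3 soybean diets, with 95% intervals from the fit over 20 arrays. Lipc on conventional soybean (-0.58) and on the 1:1 diet (-0.47) are the differences called, and the Apoc3, Apoc2 and Apoe intervals all lie within 0.36 of 0.

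Counted over the 10 genes, 1 was called lower on conventional soybean and none higher, where 1.86% of the 13462 genes were called and 0.787% were called lower. Among the 782 genes at least as bright as Mttp, the dimmest of the 10, 5.24% were called. The groups did not overlap for 3 of the 10 (Lipc, Apoa1 and Mttp, all lower), against 4.97% of all genes and 9.85% of the bright ones, and 1.87% of all genes lower. Of the 10 differences 7 lay below 0, with a median of -0.21, against a median of 0.04 over all genes and 0.02 over the bright ones. The comparisons share 1 casein group, so the differences from casein are given side by side and are not independent of each other.

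On the 1:1 diet 1 of the 10 was called, Lipc, where 2.53% of all genes and 9.46% of the bright genes were called, and 1.2% of all genes were called lower. The groups did not overlap for 1 gene, Lipc, against 5.07% of all genes and 14.8% of the bright ones, and 2.44% of all genes lower, and the median difference was 0.08 with 6 of 10 above 0. On the 3:1 diet limma called none of the 10, 0.0594% of all genes and 0.256% of the bright ones, and 2 of the 10 had an unadjusted p under 0.05 (Lipc and Apoc3), as did 8.51% of all genes and 21.2% of the bright ones. Apoc3 was the 1 gene whose groups did not overlap there, against 2.27% of all genes and 7.42% of the bright ones, and 1.48% of all genes higher. Over the mean of the 3 soybean diets 1 of 10 was called, again Lipc, against 2.5% of all genes and 10.1% of the bright ones, with 0.966% of all genes lower. The groups did not overlap for 0 of the 10, against 0.49% of all genes and 2.43% of the bright ones. The scaling of the arrays mattered for these small differences: centring and scaling moved the median of the bright genes from 0.02 to -0.14 on conventional soybean and from 0.03 to -0.13 on the 1:1 diet, and with it 62% of all calls being higher became 25.1% on conventional soybean and 51.7% became 27.6% on the 1:1 diet. Lipc on conventional soybean was then -0.75, which is -0.61 relative to the bright genes' median of -0.14, against -0.59 relative to their median in the deposited values. Relative to the same medians there, Apoa1 was -0.55 after scaling against -0.50 as deposited, Apoa4 -0.44 against -0.41 and Mttp -0.32 against -0.35. Apoa1 on the 1:1 diet was -0.53 against -0.46.

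The cultivars were compared at the same part of soybean protein, which asks about the isoflavone-rich cultivar apart from the amount of soybean. Limma called none of the 10 genes in the 1:1 high-isoflavone diet against conventional soybean, where 0.104% of all genes and 0.512% of the bright ones were called. Of the 10, 2 had an unadjusted p under 0.05, as did 7.29% of all genes and 14.5% of the bright ones. Apoa4 was higher with the high-isoflavone cultivar by 0.43 (SE 0.146, 0.13 to 0.74, adjusted p = 0.482), or 35.0%, and 4 of the 5 rats lay above all 5 on conventional soybean. Apob differed by 0.21 (SE 0.0772, 0.05 to 0.37, adjusted p = 0.56), and its groups did not overlap, as for 1.45% of all genes, 3.96% of the bright ones, and 0.624% of all genes in the higher direction. Of the 10 differences 9 lay above 0, with a median of 0.14, against -0.01 over all genes and 0.02 over the bright ones. Above 0 lay 6362 of the 13462 genes and 437 of the 782 bright ones. After quantile normalization Apoa1 (-0.0065), Apoc3 (-0.012) and Apoe (-0.026) lay below 0.

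The 1:1 and 3:1 high-isoflavone diets differ in the part of soybean protein. Limma called none of the 10 genes and 0% of all genes between them, and Apob was the 1 gene with an unadjusted p under 0.05, at 0.21 (0.05 to 0.37, adjusted p = 0.6), where 7.45% of all genes and 11.4% of the bright ones had one. The groups overlapped for all 10, where 1.16% of all genes and 1.28% of the bright ones did not overlap. With 5 rats per diet the intervals of these differences reach from -0.47 to 0.50 over the 10 genes.

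The genes differed in how much rats on the same diet varied. The SD within diets was 0.307 for Apoa5, 0.254 for Apoa1, 0.254 for Apoa4 and 0.249 for Apoa2, at the 80.7th to 88.9th percentile of the 782 bright genes, whose median was 0.152. Lipc and Mttp had 0.179 each, Apoe 0.137, Apoc2 0.134 and Apob 0.117. Apoc3 had 0.0768, at the 3.96th percentile. Apoc3 lies between Apoa1 and Apoa4 in the genome, with Apoa5 next to Apoa4 in the same run, so the gene that varied least sits among those that varied most.

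Within diets, Lipc varied together with Mttp and Apoa4 over all 20 rats, but neither relation passed the adjusted threshold without the rats numbered 1. After the diet means were removed, 45 pairs of the 10 genes were correlated over the 20 rats, and 2 pairs passed an adjusted p of 0.05 for Pearson's r. Lipc and Apoa4 had r = 0.713 and rho = 0.677 (permutation p = 0.0016, adjusted p = 0.042 for r and 0.055 for rho), with r above 0 in each of the 4 diets and 0.575 without the 2 rats farthest from the median of Apoa4. Lipc and Mttp had r = 0.703 and rho = 0.684 (permutation p = 0.0019, adjusted p = 0.042 for r and 0.055 for rho), again above 0 in all 4 diets and 0.606 without the 2 rats farthest from the median of Mttp. The values share arrays and their scaling. After quantile normalization both pairs had an adjusted p of 0.067, with r of 0.666 and 0.676, and with the 2 higher-floor arrays left out both had 0.093. After centring and scaling Lipc and Mttp passed (r = 0.659, adjusted p = 0.032), and Lipc and Apoa4 did not (r = 0.561, adjusted p = 0.065). The 4 rats numbered 1 all lay below their diet mean in Lipc (by 0.02 to 0.36), and 3 of them did in Apoa4. With these 4 left out, r was 0.515 for Lipc and Apoa4 (permutation, adjusted p = 0.34) and 0.698 for Lipc and Mttp (adjusted p = 0.12).

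Genome neighbours did not pass this test in the deposited values. Apoa1 and Apoc3 had r = -0.152 and rho = -0.111 (permutation p = 0.59, adjusted p = 0.78), and Apoa1 and Apoa4 had r = 0.126 and rho = 0.179 (permutation p = 0.63, adjusted p = 0.81). Apoc2 and Apoe, in a second run with Apoc4 and Apoc1 between them, had r = 0.632 and rho = 0.538 (permutation p = 0.024, adjusted p = 0.13), and passed after centring and scaling (r = 0.802, adjusted p = 0.0039). Apoa1, the other gene with large differences from casein, had r = 0.0396 and rho = 0.0842 with Lipc (permutation p = 0.89, adjusted p = 0.95). Over the 45 pairs r ran from -0.477, between Apoa1 and Mttp (rho = -0.472, permutation p = 0.036, adjusted p = 0.18), to 0.775, between Apoa2 and Apoc2 (rho = 0.683, permutation p = 0.013, adjusted p = 0.098), with 31 pairs above 0.

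**Figure D3:**
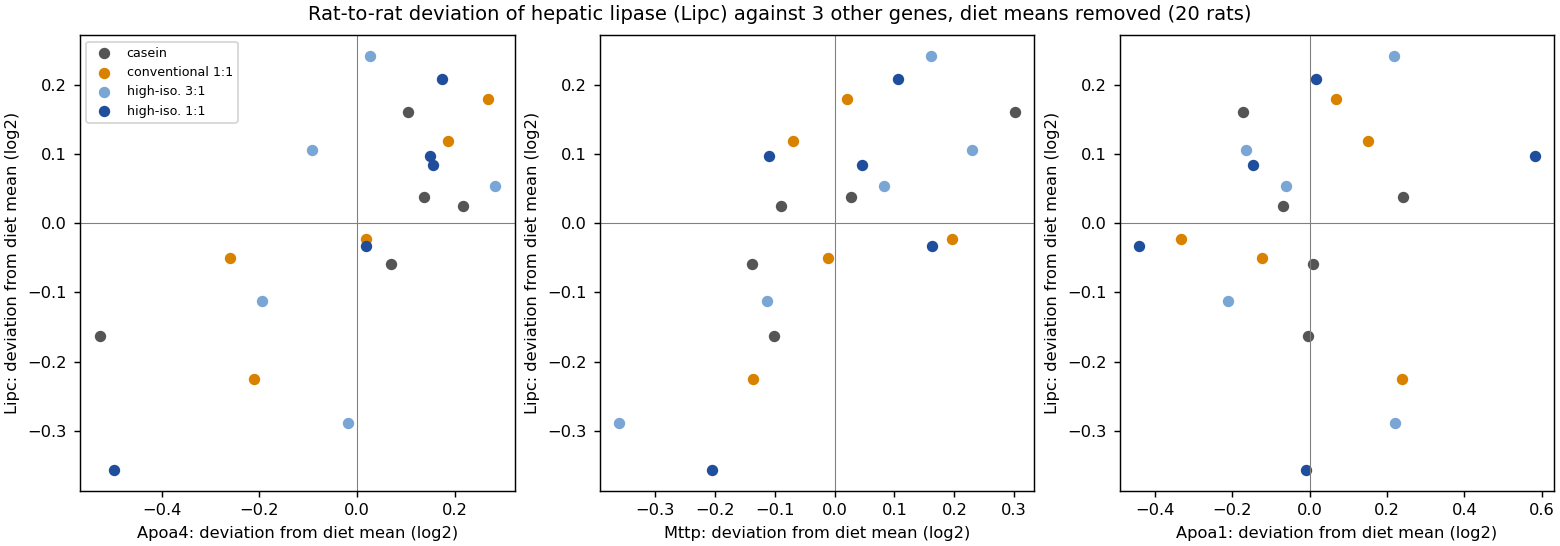
Deviation of Lipc from its diet mean against the deviations of Apoa4, Mttp and Apoa1 in the 20 rats (log2), with diets by colour. Apoa4 (r = 0.713) and Mttp (r = 0.703) follow Lipc, and Apoa1 (r = 0.0396) does not.

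The 3 genes whose pattern over the 20 arrays was most like that of Lipc, among 8403 candidates above the median signal, were Zmat4, Fads1 and Sc5d. Likeness was Pearson's r over all 20 arrays, so that it holds the diet differences as well as those between rats, and it is given as a description. Zmat4, a zinc finger gene, had r = 0.944 (rho = 0.946) and 0.857 with the diet means removed. Fads1, a fatty acid desaturase, had r = 0.942 (rho = 0.925) and 0.864 within diets, and Sc5d, a late enzyme of cholesterol synthesis, had r = 0.941 (rho = 0.914) and 0.842. The differences from casein were larger in each of these genes than in Lipc. Zmat4 fell by 1.52 on conventional soybean (adjusted p = 0.00784) and by 1.15 on the 1:1 diet (0.0292), from 5.17 ± 0.410 on casein. On the same 2 diets Fads1 differed by -1.01 (adjusted p = 0.00636) and -0.67 (0.0481). Sc5d differed by -0.68 (0.00722) and -0.57 (0.0142). On the 3:1 diet Zmat4 differed by -0.77, Fads1 by -0.47 and Sc5d by -0.39, none called.

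**Figure D4:**
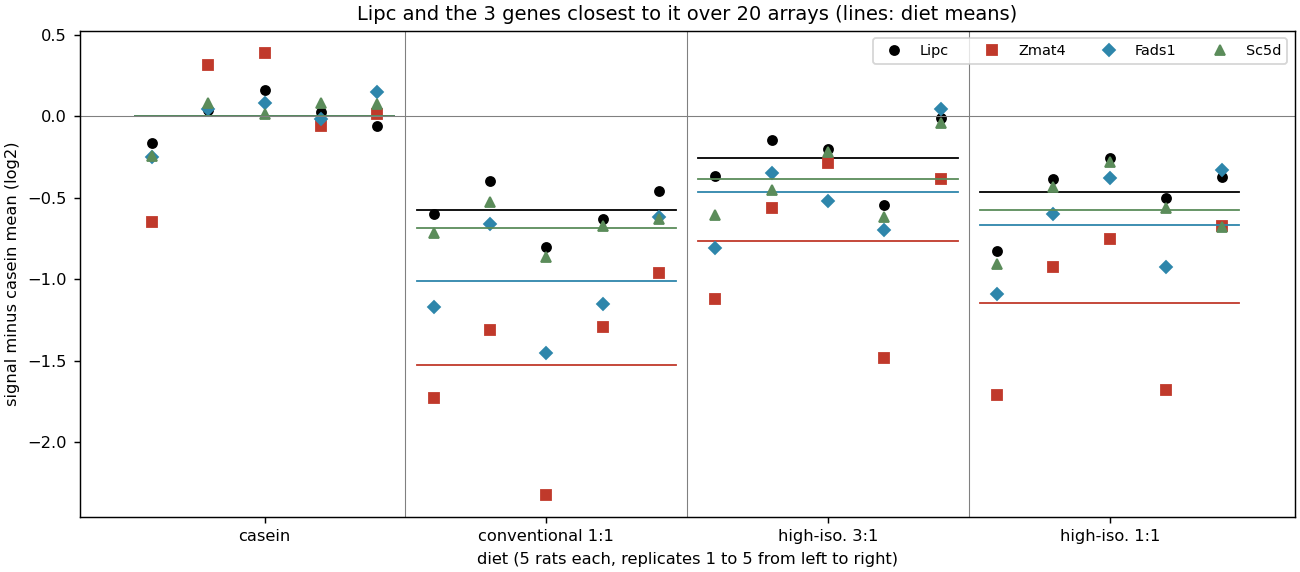
Log2 signal of Lipc, Zmat4, Fads1 and Sc5d minus the casein mean of each gene, in the 20 rats ordered by diet. Genes are shown by colour and marker, and lines are diet means. In each gene the conventional soybean rats lie below the casein rats, and r with Lipc is 0.941 to 0.944 over all rats.

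Other genes of lipoprotein metabolism were read from lists by role. Of 8 further apolipoprotein genes 7 were measured, and all 7 lay above casein on each soybean diet in the deposited values and after quantile normalization, but 3, 5 and 5 of them after centring and scaling (conventional soybean, 3:1 and 1:1). Their median differences as deposited were 0.16 on conventional soybean, 0.20 on the 3:1 diet and 0.27 on the 1:1 diet, and after centring and scaling -0.0084, 0.14 and 0.14. Apon, the gene of apolipoprotein N, rose by 0.45 on conventional soybean (SE 0.0985, adjusted p = 0.0246) and by 0.47 on the 1:1 diet (adjusted p = 0.0134), from 6.77 ± 0.199 on casein to 7.22 ± 0.123 and 7.24 ± 0.131. On the 3:1 diet it measured 7.21 ± 0.158 (adjusted p = 0.124). Clu, the gene of clusterin or apolipoprotein J, rose by 0.43 on the 1:1 diet (SE 0.113, adjusted p = 0.0459), and this call was lost in 11 of the 20 omissions (adjusted p up to 0.12) and in 6 of 10 other settings (up to 0.361). The other 5, Apoc1, Apoc4, Apod, Apoh and Apom, were not called, and differed by 0.04 to 0.30. The call of Apon on conventional soybean was lost in 6 of 20 omissions (adjusted p up to 0.0644) and in 4 of 10 other settings (up to 0.126). On the 1:1 diet it held in all 20 omissions and was lost in 2 of 10 other settings (up to 0.115).

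Of 16 measured genes that take part in assembly and secretion, 1 rose and 1 fell on each of the diets with equal parts of soybean. On conventional soybean 1.86% of all genes and 5.24% of the bright ones were called, and on the 1:1 diet 2.53% and 9.46%. Ces1d, a carboxylesterase of the liver that hydrolyses triglyceride, rose 2.09-fold on conventional soybean (1.07 log2, SE 0.212, adjusted p = 0.0153) and 2.13-fold on the 1:1 diet (adjusted p = 0.00842). It measured 5.94 to 6.77 on casein, 7.13 to 7.74 on conventional soybean and 7.18 to 7.66 on the 1:1 diet, with no overlap, and 6.12 to 7.77 on the 3:1 diet. Of the 16 genes, 3 did not overlap with casein on conventional soybean and 5 on the 1:1 diet, Ces1d and Tm6sf2 among them in both. Over all genes these shares were 4.97% and 5.07%, and over the bright genes 9.85% and 14.8%. The 1:1 call of Ces1d held in all 20 omissions and all 10 other settings, and the conventional soybean call ended in 1 omission (adjusted p = 0.0551) and in 2 of 10 other settings (up to 0.0633). Tm6sf2, which takes part in lipid loading of very low density lipoprotein, fell by 0.62 on conventional soybean (SE 0.155, adjusted p = 0.0458). This fall lost its call in 12 of 20 omissions (up to 0.11) and in 3 of 10 other settings (up to 0.113). On the 1:1 diet Tm6sf2 differed by -0.57 (adjusted p = 0.0577). Apobec1, the enzyme that edits Apob messenger RNA toward the short form of the protein, fell by 0.58 on the 1:1 diet (SE 0.14, adjusted p = 0.0302), at low signals of 3.08 ± 0.134 on casein and 2.50 ± 0.211, and its call ended in 6 of 20 omissions (up to 0.0851) and in 1 of 10 other settings (0.103). Over the 3 soybean diets together Apon (adjusted p = 0.00422), Clu (0.0478) and Ces1d (0.00829) rose, and Tm6sf2 (0.0208) and Apobec1 (0.0232) fell. In that comparison the call of Clu was lost in 15 of 20 omissions (up to 0.14) and 6 of 9 other settings (up to 0.373), that of Tm6sf2 in 3 omissions (up to 0.071) and 1 setting (0.0915), that of Apobec1 in 3 omissions (up to 0.0688) and 2 settings (up to 0.0717), and that of Ces1d in 1 setting (0.0633). Apon kept its call throughout.

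By the brightest probe set of each gene, limma called no gene of plasma remodelling (9 measured of 11) or of lipoprotein receptors (10 of 13). Neither these nor any transcription factor of lipoprotein genes (15 of 17) was called by that probe set in any of the 6 comparisons. At an unadjusted p under 0.05 there were 2, 3 and 3 on conventional soybean and 2, 4 and 5 on the 1:1 diet, where 17.2% and 17.5% of all genes had one (27.2% and 34% of the bright ones). Lsr, a receptor for triglyceride-rich particles, differed by -0.38 on conventional soybean with groups that did not overlap (SE 0.108, adjusted p = 0.0725). Srebf1, the regulator of fat synthesis, differed by -1.06 on the 1:1 diet (SE 0.293, adjusted p = 0.061). Hnf4a, a liver factor for many apolipoprotein genes, differed by -0.04 on the 1:1 diet in its brightest probe set, while 2 dim probe sets of the gene rose there, by 0.47 (adjusted p = 0.0367) and 0.93 (0.0347). These 3 genes were chosen after their values were seen. The remaining genes of the lists, Apof, Pla2g12b, Lipg and Ppara among them, were not analysed here.

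**Figure D5:**
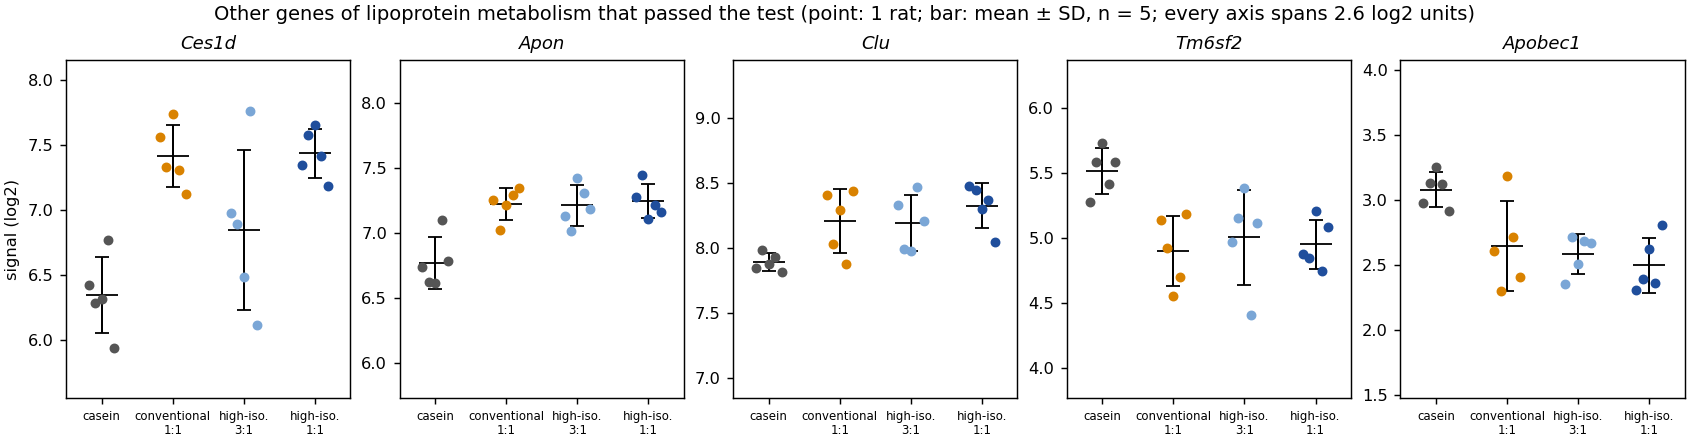
Log2 signal by diet of the related genes that were called, Ces1d, Apon, Clu, Tm6sf2 and Apobec1, with a point per rat and the mean ± SD of 5 rats. Ces1d and Tm6sf2 each separate casein from conventional soybean and from the 1:1 diet without overlap. Apon, Clu and Apobec1 do so on the 1:1 diet but not on conventional soybean. Apobec1 also lies below casein without overlap on the 3:1 diet (2.36 to 2.72, against 2.92 to 3.25). Ces1d spreads from 6.12 to 7.77 on the 3:1 diet.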

How the data were processed

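Per the labels, the authors deposited 1 table of 20 rat arrays whose values had been normalized by the SuperNORM service, after a 3′ labelling kit. The deposited values are log10 of the signal. That base is inferred from spike-in controls, which gave a slope of 0.998 (SD 0.0236, 20 arrays). They were multiplied by 3.3219 to give log2. The sources used here do not say how probes were summarized. Titles were matched to diets by wording, since the labels do not pair them with diet codes.

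Of 31099 probe sets, 57 controls and 3342 without values (2 in both) were left out, leaving 27702. Of these 19147 had 1 gene symbol, 404 several and 8151 none, covering 13462 genes. Symbols come from the platform annotation, and each gene takes its probe set of highest mean.

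Differences came from a limma fit (version 3.58.1, R 4.3.3) with a mean for each diet over 20 arrays (eBayes with a trend, two-sided, Benjamini-Hochberg over 27702 probe sets, called at 0.05), checked on simulated data. Correlations used 100000 permutations within diets. The members and gene lists were chosen with earlier results of these data known. Named genes are the 10 members, each list gene called in a comparison, and the 3 genes most like a called member. Lsr, Srebf1 and Hnf4a were named outside this rule, after their values were seen. Alternatives were quantile normalization, centring and scaling, no trend, only the compared diets, no dimmest 25% of probe sets, array weights, the median of a gene's probe sets, a replicate block, arrays left out, and both arrays with a higher floor left out. For the called list genes these were added after their calls were seen, as were the scaling check of the 7 further apolipoproteins and the correlations without the rats numbered 1. Rats numbered 1 deviated together (r of 0.20 to 0.40 in 6 pairs), but those of the other numbers did not (median r -0.0058), and 12 of 30 same-numbered pairs had r over 0.1, so numbers were not used as pairs. The 20 arrays are separate rats, and their number limits the precision.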

Additional observations from a re-analysis of the deposited data

Results flagged for a closer look

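In 5 of 48 groups of 5 rats 1 rat stood far from the others by Dixon's test, where chance gives about 1 in 20. Apoa4 in casein replicate 1 was 8.523, against 9.12 for the next rat, and Apoa4 in 1:1 high-isoflavone replicate 1 was 8.592, against 9.107. Apob in conventional soybean replicate 5 was 8.844, against 9.03. In the dim probe sets, Apob (1371157_at) in conventional soybean replicate 3 was 1.816, against 2.14, and Apoe (1371288_at) in casein replicate 3 was 0.4392, against 1.365. Both Apoa4 values are from rats numbered 1.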

How the results depend on the processing

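The count of the 10 genes called was 1 on conventional soybean, 1 on the 1:1 diet and 1 over the 3 soybean diets. After centring and scaling it was 4 (Apoa1, Apoa4, Mttp, Lipc), 2 and 2 (Apoa1 and Lipc). Without replicate 1 of all diets it was 2 on conventional soybean and 0 on the 1:1 diet, without both arrays with a higher floor 0 on the 1:1 diet, and with array weights 2 over the 3 diets. Leaving out 1 array gave 1 to 2, 0 to 2 and 1 to 2. It was 0 in every setting run for the 3:1 diet against casein, for the cultivars, and for 1:1 against 3:1. The pairs of genes with an adjusted p under 0.05 for r were 2, against 0 after quantile normalization, 10 after centring and scaling (Apoc2 with Apoe and Lipc with Mttp among them, but not Lipc with Apoa4), 0 without both arrays with a higher floor and 0 without the rats numbered 1.

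With the replicate number as a block the counts for the 10 genes stayed at 1 on conventional soybean, 1 on the 1:1 diet, 0 on the 3:1 diet and 1 over the 3 diets, while 591 probe sets were called on conventional soybean (453 without the block), 659 on the 1:1 diet (613) and 23 on the 3:1 diet (11). Over 30 same-numbered pairs r ran from -0.16 to 0.40, with a median of 0.26 over the 6 pairs of rats numbered 1 and -0.0058 over the others, so the numbers as a whole were not taken as a pairing.

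Of 1790 values of the 60 differences under 10 settings and 20 omissions, 1723 kept direction and side of the threshold, 7 lost a call, 11 gained one and 49 changed sign, none of them from a called difference. The largest difference that changed sign was 0.15 in size. After centring and scaling these were, on conventional soybean, Apob -0.17, Apoc3 -0.11 and Apoe -0.20, on the 1:1 diet Apoa4 -0.16, Apoc2 -0.070, Apoc3 -0.075 and Apoe -0.12, on the 3:1 diet Apob -0.11 and Apoc2 -0.071, and over the 3 diets Apoa5 -0.070, Apob -0.085, Apoc2 -0.12, Apoc3 -0.057 and Apoe -0.094. After quantile normalization they were Apoa4 on the 1:1 diet -0.0039, Apob on the 3:1 diet -0.0022, and between cultivars Apoa1 -0.0065, Apoc3 -0.012 and Apoe -0.026, and Apoa5 between 1:1 and 3:1 0.0026. Array weights gave Apoa1 between cultivars -0.0073 and Apoc3 between 1:1 and 3:1 0.012. Without replicate 1 of all diets Apoa1 between cultivars was -0.031, Apoa2 0.021, and Apoc3 between 1:1 and 3:1 0.045, which was 0.015 without both arrays with a higher floor. The median of probe sets gave Apoe between 1:1 and 3:1 as 0.16.

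Omissions of 1 array turned signs in the ranges -0.052 to 0.013 for Apoc2 and -0.027 to 0.046 for Apoe on conventional soybean, -0.093 to 0.16 for Apoa4 on the 1:1 diet, and -0.038 to 0.052 for Apob and -0.11 to 0.034 for Mttp on the 3:1 diet. Between cultivars they were -0.10 to 0.16 for Apoa1 and -0.19 to 0.051 for Apoa2, and between 1:1 and 3:1 -0.11 to 0.13 for Apoa5 and -0.026 to 0.026 for Apoc3. The cause of these changes was not tested.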
